A study of Homo sapiens with 12 samples.

Results

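The genes described here were the small nucleolar RNA (snoRNA) genes of A549, a human lung adenocarcinoma cell line, chosen as the rows whose symbol starts with SNORA or SNORD and whose FPKM was above 0 in at least 3 of 12 libraries. FPKM is the number of fragments scaled to gene length in kilobases and to sequencing depth. Of 25365 rows in the table, 359 carried such a symbol and 113 met the rule. They were 69 of 105 SNORA rows and 44 of 254 SNORD rows. The 15 members above 0 in exactly 3 libraries had mean FPKM of 0.303 to 70.1 (median 2.83), and the 9 rows above 0 in exactly 2, which the rule left out, had 0.128 to 86.2 (median 3.12). Wild type A549 cells and PARP3-/- A549 cells, made by Cas9 deletion in the first exon of PARP3 and cloned by serial dilution, were treated for 24 h with vehicle (DMSO) or with 1 μM pyridostatin, a small molecule that binds and stabilises G-quadruplex DNA. Each of the 4 groups had 3 libraries, made from polyadenylated RNA and read as single 75 base reads. The study's methods call the RNA-seq replicates biological triplicates. How many clones stood behind the PARP3-/- libraries is not stated in the sources used here. So p-values measure the spread between these libraries, and a difference between genotypes cannot be told apart from a difference between clones.

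PARP3 itself was not lower in the libraries labelled PARP3-/-. It lay between 3.40 and 3.96 FPKM in wild type with vehicle, 3.57 and 4.05 in wild type with pyridostatin, 4.07 and 4.92 in PARP3-/- with vehicle and 4.30 and 4.73 in PARP3-/- with pyridostatin. Over both treatments it was higher in the libraries labelled PARP3-/- by 0.21 ± 0.05 (log2, SE; limma adjusted p = 0.0154). The gene total includes any reads from outside a deleted exon. Genotypes are therefore named by label below. Of the markers examined, the keratins KRT8 and KRT18 and the enzymes AKR1B10, AKR1C1, ALDH1A1 and NQO1, which are abundant in A549, stood between 455 and 3375 FPKM in every library, KRT19 stood between 83.3 and 169 FPKM, and CDKN2A, deleted in this line, was listed at 0 in all 12. Markers of blood, endothelial, liver and alveolar cells (PTPRC, PECAM1, ALB, SFTPC) did not exceed 0.0459 FPKM in any library, and NKX2-1, of lung epithelium, did not exceed 0.0995. The genotypes differed in some of these markers. Over both treatments KRT19 was higher in PARP3-/- by a log2 difference of 0.85 ± 0.05 (limma adjusted p = 6.58e-07). The fibroblast marker COL1A1, low at 0.572 to 1.63 FPKM, was higher by 0.41 ± 0.06 (limma adjusted p = 0.000665). AKR1C1 was lower, at -0.38 ± 0.05 (limma adjusted p = 0.000367). The keratins did not move together. KRT18 stood at 2661 to 3314 FPKM in the wild type libraries and lower, at 2207 to 2607, in the PARP3-/- libraries, and KRT8 overlapped between genotypes. Their part in the differences between genotypes given below was not tested.

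snoRNAs are short non-coding RNAs that guide the chemical modification of other RNAs, mainly ribosomal RNA, in the nucleolus. Box C/D snoRNAs (SNORD) direct 2′-O-methylation with the methyltransferase fibrillarin, and box H/ACA snoRNAs (SNORA) direct pseudouridylation with dyskerin. In human cells most are cut out of the introns of a host gene and trimmed at both ends, and the mature molecule has no poly(A) tail. A library of polyadenylated RNA therefore samples them outside its intended target.

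The sequences below are those of the snoRNAs on which the comparisons turn and of the most read or highest listed ones, as GENCODE release 29 gives them, 5′ to 3′ and in the DNA alphabet. Of the 113 members, 109 had a sequence there. Capitals mark box motifs found by letters alone on the RNA strand: in SNORA genes ANANNA (H box) between 38% and 62% of the length and ACA within the last 8 bases, and in SNORD genes ATGATGA or GTGATGA (C box) within the first 25 bases and CTGA (D box) within the last 20. First come 5 of the 6 members that passed the test in at least 1 contrast.
SNORA51: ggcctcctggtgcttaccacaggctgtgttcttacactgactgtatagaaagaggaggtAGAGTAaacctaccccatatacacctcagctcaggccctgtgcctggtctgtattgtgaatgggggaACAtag
SNORA16A: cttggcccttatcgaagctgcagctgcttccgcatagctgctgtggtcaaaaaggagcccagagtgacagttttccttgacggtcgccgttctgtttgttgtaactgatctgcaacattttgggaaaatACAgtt
SNORA80B: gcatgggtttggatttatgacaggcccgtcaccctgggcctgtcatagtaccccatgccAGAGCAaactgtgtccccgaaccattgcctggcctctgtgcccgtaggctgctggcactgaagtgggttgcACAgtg
SNORA8: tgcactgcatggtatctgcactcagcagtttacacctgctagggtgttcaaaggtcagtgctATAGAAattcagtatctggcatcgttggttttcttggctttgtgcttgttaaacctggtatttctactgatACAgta
SNORA40: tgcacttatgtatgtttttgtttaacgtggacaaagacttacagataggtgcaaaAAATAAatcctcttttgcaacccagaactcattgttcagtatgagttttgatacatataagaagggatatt
Next come 3 of the most read members, followed by SNORD104, the second by FPKM, and SNORD26, whose annotated length equals the read length.
SNORA70: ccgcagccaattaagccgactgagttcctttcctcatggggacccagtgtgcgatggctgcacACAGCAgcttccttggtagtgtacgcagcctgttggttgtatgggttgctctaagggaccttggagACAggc
SNORD17: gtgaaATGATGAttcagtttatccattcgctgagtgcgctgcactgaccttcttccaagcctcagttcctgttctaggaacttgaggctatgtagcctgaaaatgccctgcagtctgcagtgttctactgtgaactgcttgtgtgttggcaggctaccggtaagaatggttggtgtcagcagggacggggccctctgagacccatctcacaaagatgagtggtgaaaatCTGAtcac
SNORD22: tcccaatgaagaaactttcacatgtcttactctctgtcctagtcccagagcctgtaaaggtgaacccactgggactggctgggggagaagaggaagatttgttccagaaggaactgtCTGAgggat
SNORD104: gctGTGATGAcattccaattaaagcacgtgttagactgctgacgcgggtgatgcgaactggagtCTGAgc
SNORD26: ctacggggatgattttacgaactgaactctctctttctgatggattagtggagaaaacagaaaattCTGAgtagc
Both motifs were found in 54 of 69 SNORA members and in 32 of 36 SNORA rows that were no members. For SNORD the counts were 23 of 40 members with a sequence, or 57.5%, and 136 of 196 other rows, or 69.4%. A missing match says only that these letters are not in the window searched.

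The share of SNORD genes detected rose with length, though most rows of 75 to 124 nt were not members either. By RefSeq length, 98 of the 254 SNORD rows were shorter than the 75 bases of a read, and all 98 were listed at 0 FPKM in all 12 libraries. From 75 to 79 nt, 5 of 30 rows were members, from 80 to 89 nt 11 of 63, from 90 to 99 nt 15 of 42, from 100 to 124 nt 6 of 14, and from 125 nt upward 7 of 7. By RefSeq the shortest row above 0 in any library was 75 nt long. Among SNORA genes, which are longer, 69 of 102 rows of 125 nt or more were members and none of 3 shorter ones. The SNORA rows that were no members had a median length of 133 nt and the SNORA members one of 134 nt. GENCODE lengths can differ from these, and by them 3 SNORD members were under 75 nt: SNORD104 (70 nt, 80 by RefSeq), SNORD58C (64 and 90) and SNORD99 (74 and 80). For the 98 rows above the table holds no value that could differ between groups.

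**Figure D1:**
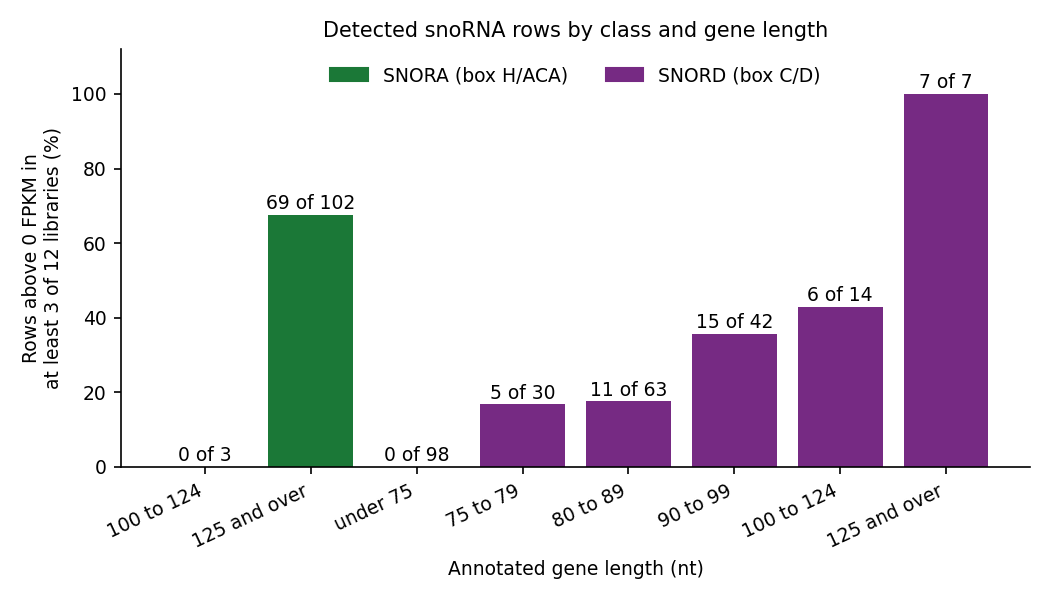
Percent of rows above 0 FPKM in at least 3 of 12 libraries, by RefSeq gene length in nt, for SNORA (green) and SNORD (purple) rows, with the numbers of rows over each bar. No row under 75 nt by RefSeq was above 0, and the share of SNORD rows rose from 5 of 30 at 75 to 79 nt to 7 of 7 from 125 nt upward.

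A place within a host gene, which the rule did not use, was common to members and other snoRNA rows. The annotated span of another gene on the same strand held 109 of the members, and RefSeq spans, read without strand, gave a host for the other 4. Of the rows that were no members and had a GENCODE sequence, 35 of 36 SNORA and 195 of 196 SNORD rows also had such a host. In all there were 72 hosts, among them 31 members in ribosomal protein genes (RPL and RPS, including RPSA) and 25 in SNHG genes, non-coding RNAs that are named for the snoRNAs in their introns. Of the SNORA members, 50.7% (35 of 69) lay wholly inside an annotated exon of a host transcript, such as one with a retained intron, against 11.4% (4 of 35) of the other SNORA rows. Among SNORD rows of 75 nt or more, these shares were 50% (20 of 40) and 15.1% (16 of 106). The hosts of the members were also more abundant. Their median over mean FPKM was 78.4 for SNORA members and 9.92 for other SNORA rows, and 206 for SNORD members and 41.7 for other SNORD rows of 75 nt or more. Members wholly inside a host exon held 72.6% of the reads of the 109 members with a GENCODE sequence, with a median of 23 reads over the 12 libraries, and those without any host exon had a median of 8. Whether the reads came from mature snoRNAs or from host transcripts was not tested.

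The FPKM of a snoRNA gene is a small number of reads multiplied by a large factor. In most of these genes the values moved in equal steps once the relative depth of the libraries was taken out, and the step was taken as 1 read. The worth of 1 read in wild type vehicle replicate 1 fell from 587 FPKM at 75 nt to 243 at 80 nt, 211 at 81 nt, 7.93 at 133 nt and 0.656 at 250 nt. This fall was far steeper than scaling to the annotated length alone would give. A step was found for 106 members, and all 852 of their values above 0.001 FPKM lay within 0.05 of a whole number of steps. A step was accepted only where values were already close to whole multiples of it. That all values lay so close therefore follows largely from this choice and is no check of it. In 101 members the step was 1 read. In SNORA22, SNORA59A and SNORA7B it was 1/2 and in SNORA40 and SNORD116-19 it was 1/6 of the value that their length gives for 1 read. These 5 were among the 8 members that share at least one 75 base stretch with a snoRNA gene annotated elsewhere, and the values of all 8 are uncertain, since reads can be split between such copies. In SNORA59A and SNORD116-19 every such stretch was shared. In SNORA40 17.3% were shared, with SNORA40B and an unnamed copy. SNORA10 and SNORA70, with 62.7% and 13.1% shared, moved in whole reads.

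The remaining 7 members had no step (SNORA7A, SNORA81, SNORA17, SNORA43, SNORA36A, SNORA56 and SNORD86). Their reads were taken from the worth of a read at their length and need not be whole. SNORA36A and SNORA56, both within DKC1, and SNORD86, within NOP56, entered by the rule although each of their values lay at or under 0.001 FPKM. In all, 33 values of 6 members were above 0 but not above 0.001 FPKM, which is far below 1 read, and these were counted as 0 reads. Requiring more than 0.001 FPKM would leave 110 members.

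**Figure D2:**
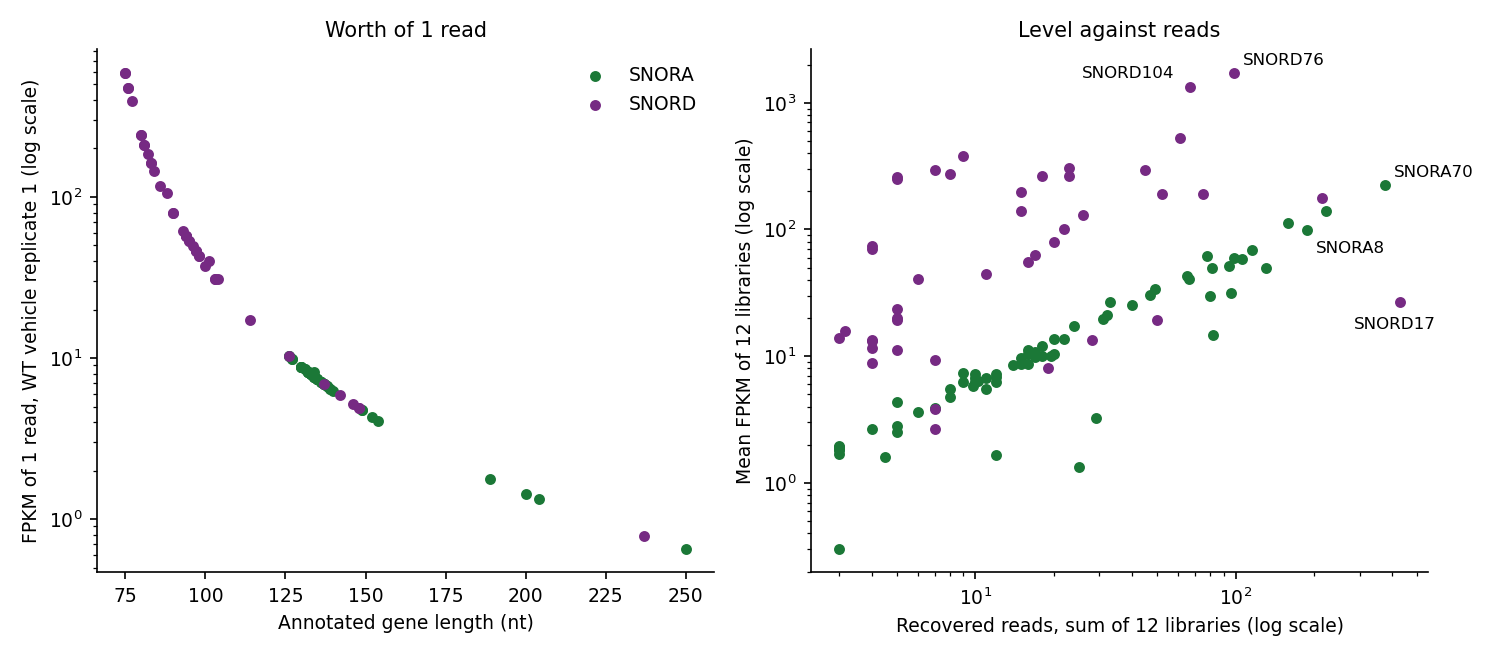
Left, FPKM that 1 read was worth in wild type vehicle replicate 1 (log scale) against annotated gene length in nt, 1 point per member with a step. Right, mean FPKM over 12 libraries against recovered reads summed over them (both log scale), 1 point per member. SNORD76 stood highest by FPKM with 99 reads, and SNORD17 had the most reads, 428, at a mean of 26.6 FPKM.

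Over all members and libraries about 4257 reads were recovered, between 273 and 478 in a library. Of the 884 values above 0.001 FPKM, 33.9% were a single read and 59.5% were 1 to 3 reads. Only 64 members averaged 1 read or more per library, and 22 averaged 5 or more. The 10 members with most reads held 47.9% of them. SNORA members held 65.8% of the reads, and SNORD members, with a median length of 94 nt against 134 nt, held 83.4% of the summed FPKM.

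The 10 highest members by mean FPKM were all SNORD genes: SNORD76, SNORD104, SNORD35B, SNORD87, SNORD33, SNORD100, SNORD58C, SNORD47, SNORD45A and SNORD32A. SNORD76, one of the snoRNAs within the growth-arrest transcript GAS5, averaged 1717 FPKM. It had 7, 9 and 3 reads in the wild type vehicle libraries, 11, 7 and 10 in PARP3-/- with vehicle, 6, 11 and 7 in wild type with pyridostatin, and 12, 11 and 5 in PARP3-/- with pyridostatin. SNORD104 averaged 1336 FPKM from 1 to 11 reads in a library. SNORD100, sixth at 296 FPKM, had 7 reads in all, with 0 in 7 libraries.

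By reads the order was another one. SNORD17, a long box C/D snoRNA of 237 nt in an intron of SNX5, had 428 reads, 23 to 53 per library, yet stood 45th by FPKM. SNORA70, within the ribosomal protein gene RPL10, had 376 reads, 19 to 44 per library. SNORA10 (222 reads, within RPS2), SNORD22 (214, within SNHG1), SNORA8 (189, within TAF1D), SNORA61 (159, within SNHG12), SNORA6 (131, within RPSA), and SNORA48 and SNORA67 (116 and 106, both within EIF4A1) followed. SNORA63, within EIF4A2, had 99. Each of these 10 overlapped its neighbours in this order in its range over the libraries. These are reads, not levels per length.

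snoRNAs of 1 host differed widely in reads in some hosts and were close in others. Within TAF1D, which codes for a subunit of the RNA polymerase I factor SL1, SNORA8 (139 nt) had 189 reads and SNORA1 (130 nt) 10. Within SNHG12, SNORA61 had 159 reads and SNORD99 4. Within SNHG1, SNORD22 had 214 reads and SNORD28 5, and 5 of the 8 snoRNA rows of that host were under 75 nt and at 0. Within EIF4A2 the 3 members ran from 82.2 to 99 reads, within TBRG4 from 15 to 22, and within SNHG17 from 15 to 20. GAS5 held 10 rows, of which 6 were under 75 nt and 3 were members. In the imprinted SNORD115 and SNORD116 clusters on chromosome 15, best known from brain, 0 of 43 and 5 of 27 rows were members. Of these, SNORD116-22 had 22 reads over the 12 libraries and SNORD116-23 3.

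For the 22 members with at least 5 reads per library, the median coefficient of variation of FPKM over the 12 libraries was 0.359, and the median expected from the read numbers was 0.351. For members under 5 reads these values were 1.16 and 1.04. These SDs were taken over all 12 libraries, groups together. The within-group SD of log2(FPKM + 1) had a median of 1.73 over the tested members and 0.0842 over all genes tested.

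Per library, 66 to 81 members stood above 0.001 FPKM. The numbers were 70.3 ± 4.51 (SD, n = 3) in wild type with vehicle, 75.7 ± 6.81 (n = 3) in PARP3-/- with vehicle, 76.3 ± 3.06 (n = 3) in wild type with pyridostatin and 72.3 ± 2.08 (n = 3) in PARP3-/- with pyridostatin. Relative depth, from the worth of a read, ran from 1 to 1.42, and was highest in wild type pyridostatin replicate 2. Reads in members per unit of relative depth were 325 ± 17.0 (SD, n = 3) and 315 ± 46.4 with vehicle (wild type, then PARP3-/-), and 285 ± 10.3 and 288 ± 33.4 with pyridostatin. In wild type the 3 pyridostatin libraries, 277 to 296, lay under the 3 vehicle libraries, 306 to 337, and in PARP3-/- the ranges overlapped, 266 to 327 against 273 to 365. No test was made of these sums. In bulk libraries fewer cells with an RNA and less of it per cell cannot be told apart.

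PARP3-/- vehicle replicate 3 and PARP3-/- pyridostatin replicate 2 stood apart in 1 respect. In both, a read in a short gene was worth more than depth gave. The factor was taken from both libraries together, as 1.23 at 75 nt, 1.13 at 81 nt, 1.02 at 133 nt and 1.00 at 250 nt. At 75 nt only PARP3-/- vehicle replicate 3 of these libraries held a read, so the value there rests on it alone. The sum of member FPKM was 10974 and 14006 in these libraries and 7291 to 11671 in the other 10. Reads were corrected for this factor. The FPKM used in the tests were not, and values without both libraries are given where they change a call.

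**Figure D3:**
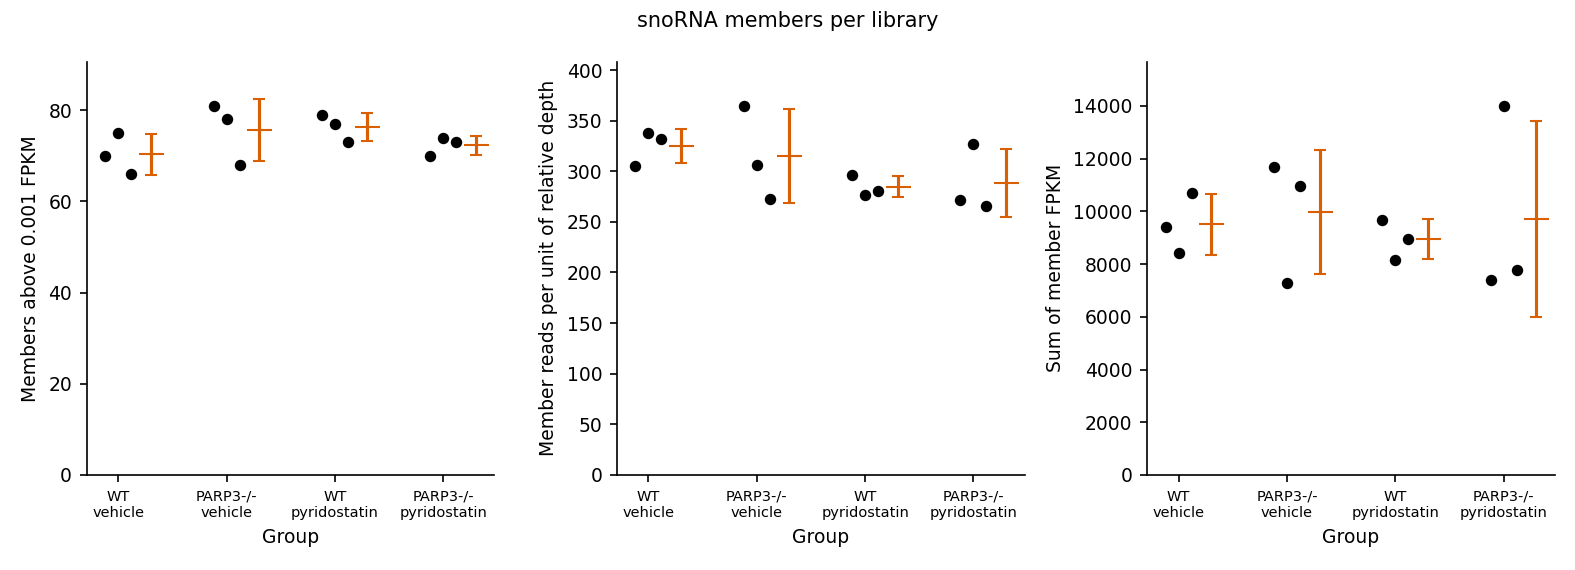
Members above 0.001 FPKM, recovered member reads per unit of relative depth and the sum of member FPKM in each of 12 libraries (black points), with the mean and SD of each group of 3 (orange). The groups overlapped in summed FPKM, and the 3 wild type pyridostatin libraries lay under the 3 wild type vehicle libraries in reads per depth.

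Differences between groups were tested with limma on log2(FPKM + 1) across the 11881 genes that averaged 1 FPKM or more, with Benjamini-Hochberg adjustment. Of the members, 109 were tested, 66 SNORA and 43 SNORD. SNORA36A, SNORA56, SNORD86 and SNORA74B were not. For the middle tested member a log2 change of 4.39 would have been needed to be called between genotypes with vehicle, and 0.24 for the middle gene of the table. A member not called may have been unchanged or may have changed by less than could be detected at this depth.

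In the libraries labelled PARP3-/- with vehicle, 2 of 109 members were called, SNORA20 higher and SNORA51 lower. Of all genes tested, 9.41% were called in this comparison. With pyridostatin, 3 of 109 members differed between genotypes, SNORA16A and SNORA8 higher and SNORA51 lower, against 10.9% of all genes. Pyridostatin changed 1 of 109 members in wild type, SNORA8, which fell (4.17% of all genes were called), and 2 in PARP3-/-, SNORA16A higher and SNORA51 lower (5.56%). Over both treatments, 3 members were called between genotypes, SNORA20 and SNORA80B higher and SNORA51 lower (19.1% of all genes). Over both genotypes, 4 were called for pyridostatin, SNORA16A higher and SNORA51, SNORA8 and SNORA40 lower (13.9%). No member and no other gene passed the test for an interaction (0%). At an unadjusted p under 0.05, 8 members and 521 of all genes did. The comparisons share libraries, so these calls are not independent of one another. In all, 6 of 66 tested SNORA members and 0 of 43 SNORD members were called at least once, beside 29.5% of all genes tested.

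**Figure D4:**
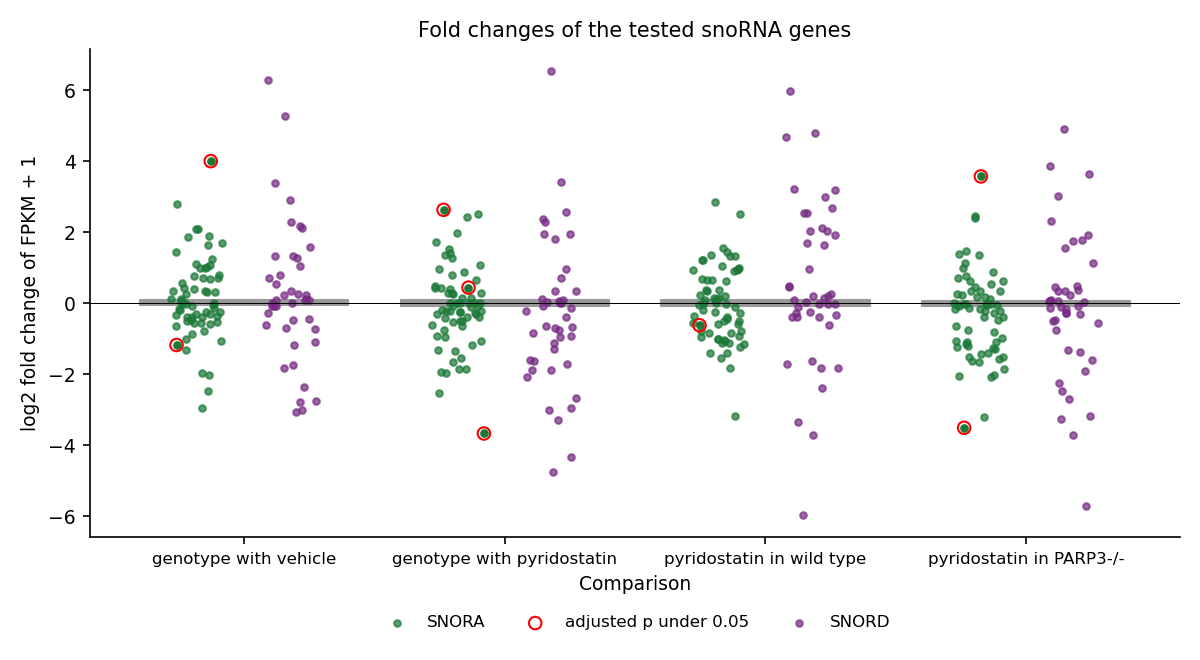
log2 fold change of FPKM + 1 in 4 comparisons (PARP3-/- over wild type, and pyridostatin over vehicle) for the 66 SNORA (green) and 43 SNORD (purple) members tested, with the middle 50% of all 11881 genes as grey bands. Members called at an adjusted p under 0.05 are ringed, and many uncalled members lie farther from 0 than some of the ringed ones.

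The calls were few although fitted changes were wide. With vehicle, 38.5% of the tested members and 1.32% of all genes had a log2 difference over 1 in either direction between genotypes. With pyridostatin these shares were 40.4% and 1.39%. For pyridostatin they were 43.1% and 1.01% in wild type and 45% and 1.05% in PARP3-/-. The middle 50% of the members ran from -0.51 to 0.81 for genotype with vehicle, against -0.06 to 0.09 over all genes, and the medians were 0.03 and 0.02. For pyridostatin in PARP3-/- the median member stood at -0.11 and the median gene at 0.00. Groups that did not overlap were less frequent among members than among all genes. With vehicle, 4 of 109 members, 3.67%, and 24.2% of all genes had genotypes that did not overlap. With pyridostatin 11 members (10.1%) and 35.2% of all genes did. Between treatments there were 8 members (7.34%) and 23.1% of all genes in wild type, and 6 (5.5%) and 32.3% in PARP3-/-.

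SNORA51 was the member called most often. It lies within NOP56, which codes for a core protein of box C/D snoRNPs, and 77.3% of its length overlaps an annotated NOP56 exon. Its FPKM was 24.7, 23.4 and 26.2 in wild type with vehicle, 14.1, 8.42 and 9.41 in PARP3-/- with vehicle, 15.3, 6.52 and 15.8 in wild type with pyridostatin, and 0 in all 3 libraries of PARP3-/- with pyridostatin. In reads these were 3, 3 and 3, then 2, 1 and 1, then 2, 1 and 2, then 0, 0 and 0. Wild type with vehicle lay above the other groups, PARP3-/- with pyridostatin lay below all, and the other two overlapped. The fitted log2 difference between genotypes was -1.18 ± 0.27 (SE) with vehicle (adjusted p = 0.0190) and -3.67 ± 0.27 with pyridostatin (adjusted p = 9.63e-06). Pyridostatin went with a difference of -3.51 ± 0.27 in PARP3-/- (adjusted p = 0.000135) and of -1.02 ± 0.27 in wild type, which did not pass (adjusted p = 0.0656).

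Its read numbers bound these changes far more loosely. With PARP3-/- with pyridostatin set to 3 reads, it was 1.52-fold lower than wild type with pyridostatin and 1.36-fold lower than PARP3-/- with vehicle. The reads of the other group were taken as counted, without their own counting error. These ratios are therefore not lower bounds of the change. Between genotypes with vehicle, 9 reads stood against 4, a ratio of 0.439 (95% exact interval 0.0987 to 1.57, counting error only). Over both treatments it was 14 against 4, a ratio of 0.297 (0.0713 to 0.947). The within-group SD on the log2 scale was 0.38, and a large-number approximation for counting 1.5 reads per library would give about 1.18. The SD includes the group without any read, so the 2 values are not strictly comparable. The call between genotypes with vehicle was lost without wild type vehicle replicate 1 (adjusted p = 0.0507) or 3 (0.0626), without PARP3-/- vehicle replicate 2 (0.0825) or 3 (0.0709), and without both libraries with the shifted worth of a read (0.11). The host NOP56 was also lower in PARP3-/- over both treatments, by a log2 difference of -0.14 ± 0.04 (adjusted p = 0.0332), with group means of 223 and 208 FPKM with vehicle and 209 and 184 with pyridostatin. SNORD86, the other member within NOP56, held no read.

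SNORA20, within TCP1, a subunit gene of the chaperonin TRiC, held no read in any of the 6 wild type libraries. It met the rule for members only through PARP3-/- libraries, the genotype in which it was called higher. Its choice and its calls are therefore not independent. Its FPKM was 14.1, 8.42 and 28.2 in PARP3-/- with vehicle, from 2, 1 and 3 reads, and 0, 16.3 and 8.15 in PARP3-/- with pyridostatin, from 0, 2 and 1 reads. With vehicle the genotypes did not overlap. The fitted log2 difference was 4.01 ± 0.82 (SE, adjusted p = 0.0103), which depends on the 1 FPKM added before the log. In reads, with wild type set to 3 as was done for SNORA51, SNORA20 was 1.97-fold higher in PARP3-/- with vehicle. Over both treatments 9 reads against 0 gave 3.12-fold in this way (fitted log2 difference 3.22 ± 0.58, adjusted p = 0.00268). Neither ratio is a lower bound. With pyridostatin alone the difference of 2.44 ± 0.82 was not called (adjusted p = 0.0908). Its host moved the other way: TCP1 was lower in PARP3-/- by a log2 difference of -0.18 ± 0.04 with vehicle (adjusted p = 0.0223) and -0.19 ± 0.04 with pyridostatin (adjusted p = 0.0167). SNORA29, the other snoRNA within TCP1, had 11 reads over the 12 libraries and was not called.

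SNORA16A, within SNHG12, was read in PARP3-/- with pyridostatin and almost nowhere else. It met the rule for members only through that group, in which it was called higher. Its choice and its calls are therefore not independent. Its FPKM was 7.28, 22.8 and 7.59 in that group, from 1, 3 and 1 reads, and 6.08 in wild type pyridostatin replicate 2, from 1 read. The other 8 libraries were at 0. Pyridostatin went with a fitted log2 difference of 3.58 ± 0.66 in PARP3-/- (SE, adjusted p = 0.0117). In reads it was 1.64-fold more with the vehicle group set to 3 reads, which is no lower bound. This call was lost without PARP3-/- pyridostatin replicate 2 (adjusted p = 0.0544) and without both libraries with the shifted worth of a read (0.140). Between genotypes with pyridostatin the log2 difference was 2.63 ± 0.66 (adjusted p = 0.0267), and 5 reads against 1 gave a ratio of 5.47 (0.612 to 259). It was lost without wild type pyridostatin replicate 1 (0.111) or 3 (0.112), without PARP3-/- pyridostatin replicate 2 (0.107) or 3 (0.0525), and without both libraries above (0.149). It was also lost with the spread estimated from the 6 pyridostatin libraries only (0.102). Over both genotypes the difference was 2.26 ± 0.46 (adjusted p = 0.0095), lost without both libraries (0.0576). The other 3 snoRNAs within SNHG12, SNORA44, SNORA61 and SNORD99, were not called, nor was SNHG12 (log2 difference for pyridostatin in PARP3-/- -0.11 ± 0.12, adjusted p = 0.664).

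SNORA80B, within the ornithine decarboxylase gene ODC1, was called only between genotypes over both treatments, at 2.29 ± 0.66 (log2, SE, adjusted p = 0.0332). It too met the rule for members only through the PARP3-/- libraries. It had 1 read in 1 of the 6 wild type libraries and 7 reads in 5 of the 6 PARP3-/- libraries, at 6.79 to 21.3 FPKM, and the ratio of reads was 7.29 (0.936 to 328). Leaving out any single library except wild type vehicle replicate 2, PARP3-/- vehicle replicate 1 or wild type pyridostatin replicate 1 ended the call, with adjusted p from 0.0506 to 0.0833. Without both libraries with the shifted worth of a read it was 0.117. ODC1 did not pass the test (log2 difference -0.02 ± 0.03, adjusted p = 0.731).

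SNORA8 was the called member with most reads. Its FPKM was 96.8, 110 and 130 in wild type with vehicle, 111, 119 and 103 in PARP3-/- with vehicle, 72.3, 76.8 and 68.2 in wild type with pyridostatin and 98.2, 89.6 and 109 in PARP3-/- with pyridostatin. The 3 wild type pyridostatin libraries lay under the other 9, which overlapped. In wild type it fell with pyridostatin by 0.62 ± 0.11 (log2 difference -0.62, adjusted p = 0.00927), and in PARP3-/- the difference of -0.17 ± 0.11 was not called (adjusted p = 0.438). With pyridostatin it was higher in PARP3-/- by 0.44 ± 0.11 (adjusted p = 0.0215). The test of the difference between these effects did not pass (interaction 0.45 ± 0.15, adjusted p = 0.999).

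In reads, the fall in wild type was from 52 to 38, a ratio of 0.648 (0.415 to 1.00). The within-group SD of SNORA8 was 0.14 on the log2 scale, where 15.8 reads per library would give about 0.36 from counting. This ratio was the lowest of the 22 members with at least 5 reads per library, 6 of which had an SD under the counting value. With the spread estimated from the 6 wild type libraries only, the fall was not called (adjusted p = 0.105). The call between genotypes was lost without wild type pyridostatin replicate 1 (0.07) or 3 (0.0898) or PARP3-/- pyridostatin replicate 1 (0.0603) or 3 (0.0926). The host TAF1D went the other way with pyridostatin. It stood at 19.4 and 19.9 FPKM with vehicle and 23.5 and 22.4 with pyridostatin (wild type, then PARP3-/-), a log2 difference of 0.21 ± 0.05 over both genotypes (adjusted p = 0.0201), where SNORA8 had -0.39 ± 0.07 (adjusted p = 0.0064).

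SNORA40, also within TAF1D, was called over both genotypes only, at -0.53 ± 0.16 (log2, SE, adjusted p = 0.0467). Its FPKM was 57.8, 89.4 and 59.7 in wild type with vehicle and 38.5, 39.3 and 38.0 with pyridostatin, and in PARP3-/- 108, 71.0 and 53.1 with vehicle and 62.8, 59.3 and 62.2 with pyridostatin. The wild type groups did not overlap and the PARP3-/- groups did. It is one of the members whose sequence is shared in part with a copy elsewhere. Leaving out any single library except wild type vehicle replicate 1 or PARP3-/- vehicle replicate 3 ended the call, with adjusted p from 0.0536 to 0.099. SNORA1, SNORA18 and SNORA25, the other snoRNAs within TAF1D, were not called in any contrast.

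All 6 called members had a within-group SD under the value taken for counting alone, with ratios of 0.32 for SNORA51 to 0.742 for SNORA80B. The counting value is an approximation for large read numbers. For SNORA51, SNORA20, SNORA16A and SNORA80B it was taken at few reads, and their SD includes a group or groups without any read. For these members the ratio does not measure spread against counting error.

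**Figure D5:**
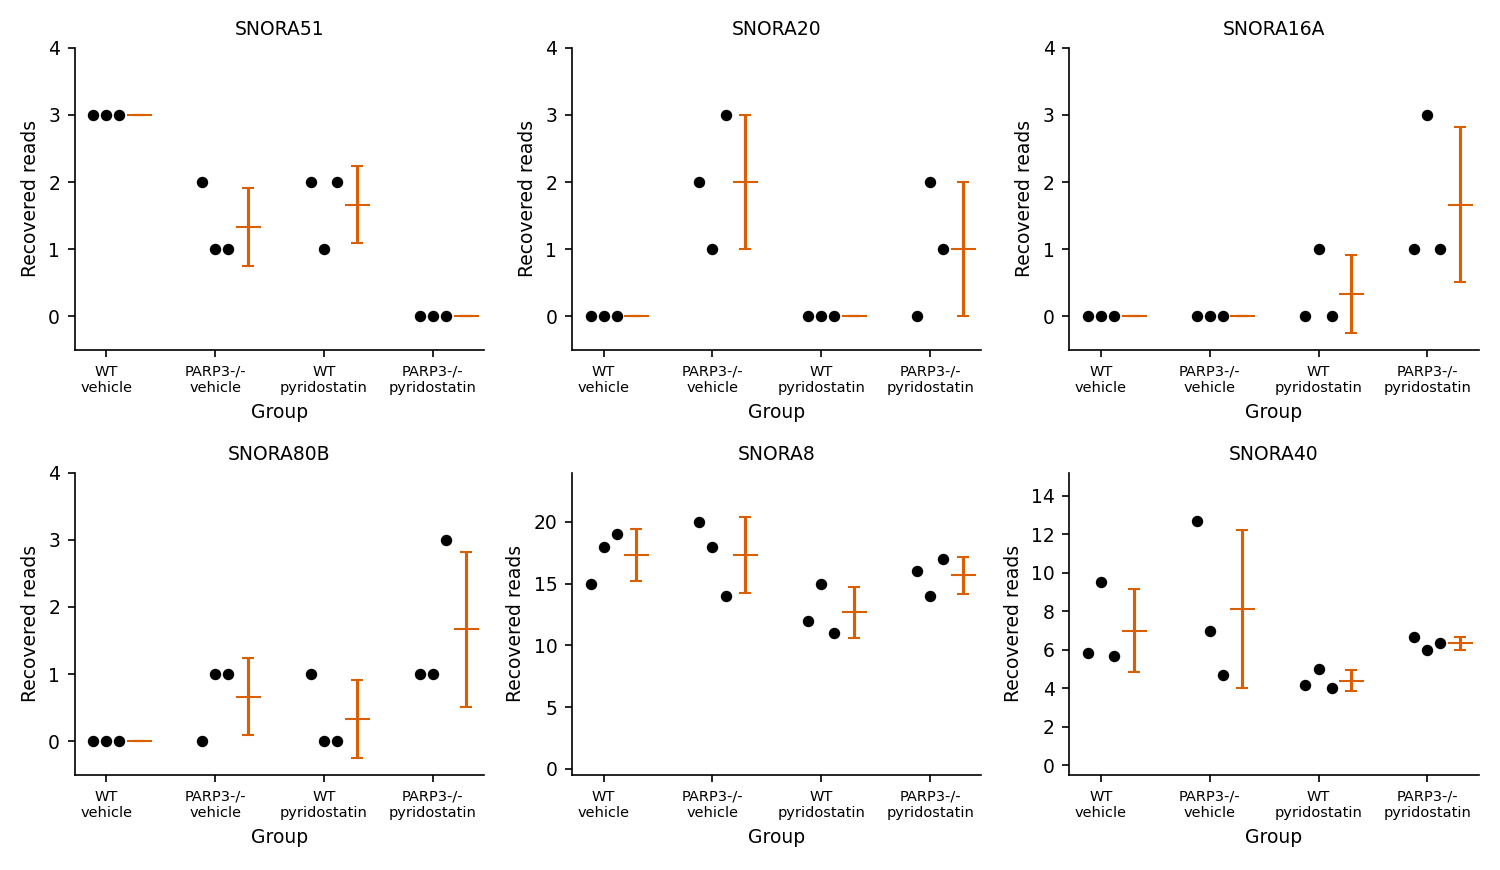
Recovered reads of the 6 called members in each of 12 libraries (black points), with the mean and SD of each group of 3 (orange). SNORA51, SNORA20, SNORA16A and SNORA80B never exceeded 3 reads in a library, and the 3 wild type pyridostatin libraries of SNORA8 held 11 to 15 reads.

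Other members had groups whose FPKM did not overlap and were not called. SNORA63, within EIF4A2, had 82.8, 52.8 and 78.0 FPKM in wild type with pyridostatin (12, 9 and 11 reads) and 42.2, 22.0 and 22.0 in PARP3-/- with pyridostatin (6, 3 and 3 reads). The log2 difference was -1.32 ± 0.45 (adjusted p = 0.0945), and the ratio of reads was 0.410 (0.192 to 0.818). With vehicle SNORA63 had 28 reads in wild type and 27 in PARP3-/-, and without both libraries with the shifted worth of a read the adjusted p with pyridostatin was 0.308. SNORD22, within SNHG1, held 28, 24 and 18 reads in wild type with pyridostatin and 16, 9 and 17 in PARP3-/- with pyridostatin, at a log2 difference of -0.63 ± 0.28 (adjusted p = 0.204). With vehicle it held 45 and 57 reads. SNORD60, within SNHG19, had 1, 2 and 5 reads in wild type with vehicle and 1, 1 and 0 with pyridostatin. In PARP3-/- it had 3, 2 and 0 reads with vehicle and none with pyridostatin. With the latter group set to 3 reads it was 1.69-fold lower, which is no lower bound. The wild type groups did not overlap in FPKM, 163 to 869 against 0 to 153, and met at 1 in reads. The PARP3-/- groups overlapped at 0. Neither comparison was called. SNORA40 and SNORA80B did not overlap between genotypes with pyridostatin either, at log2 differences of 0.66 ± 0.22 and 2.51 ± 0.93 (adjusted p = 0.089 and 0.124). SNORD35B had 197, 334 and 404 FPKM in wild type with pyridostatin (2, 4 and 4 reads) and 601, 781 and 418 in PARP3-/- with pyridostatin (6, 7 and 4 reads), at a log2 difference of 0.96 ± 0.65 (adjusted p = 0.418). Over both treatments its ratio of reads was 1.98 (1.14 to 3.54, counting error only). The limma test of log2(FPKM + 1) did not call it there (adjusted p = 0.12). A further 4 members outside the rule for named genes were taken up after their values were seen. SNORA61 had 90.8, 56.2 and 67.9 FPKM in wild type with pyridostatin and 126, 185 and 96.5 in PARP3-/- with pyridostatin (log2 difference 0.89 ± 0.33, adjusted p = 0.123). SNORA10 had 151, 196 and 186 FPKM in wild type with vehicle and 126, 120 and 114 with pyridostatin (-0.55 ± 0.30, adjusted p = 0.339). SNORA23 between genotypes with pyridostatin and SNORA41 between treatments in PARP3-/- had at most 4 reads in a library. The other members with such groups, SNORA5B, SNORD116-4, SNORD94, SNORD21, SNORA13, SNORD116-22 and SNORA45A, had 0 to 5 reads in every library.

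SNORD17 and SNORA70, the most read members, and SNORA48 were not called in any contrast. SNORD17 held 95 reads in wild type with vehicle and 106 in PARP3-/- with vehicle. Its log2 difference between genotypes was 0.10 (95% interval -0.44 to 0.65) with vehicle and 0.12 (-0.42 to 0.66) with pyridostatin, and for pyridostatin it was 0.08 (-0.46 to 0.62) in wild type and 0.10 (-0.44 to 0.64) in PARP3-/-. SNORA70 gave -0.05 (-0.66 to 0.56), 0.28 (-0.33 to 0.89), -0.38 (-0.99 to 0.23) and -0.06 (-0.67 to 0.55) in the same order. SNORA48, among the 5 members with the smallest within-group SD, gave 0.13 (-0.37 to 0.63), 0.16 (-0.34 to 0.66), -0.04 (-0.54 to 0.46) and -0.01 (-0.51 to 0.49). 

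The mRNAs of the proteins that carry snoRNAs were examined as a list of 23 genes for snoRNP proteins and their assembly and processing factors, all of which were tested. None was called between genotypes with vehicle, at a median log2 difference of -0.01 against 0.02 over all genes, and none for pyridostatin in wild type (-0.05 against 0.00). The mRNAs of the box C/D core proteins NOP56 and NOP58 and of dyskerin (DKC1) were lower in PARP3-/- over both treatments, by log2 differences of -0.14, -0.14 and -0.08 (adjusted p = 0.0332, 0.0195 and 0.0394), and NOP58 also with pyridostatin alone (-0.23 ± 0.05, adjusted p = 0.0163). Of the 23, 3 were called in that contrast, or 13%, beside 19.1% of all genes. Over both genotypes, pyridostatin went with less mRNA of GAR1, a box H/ACA core protein (-0.24 ± 0.05, adjusted p = 0.00889), of the chaperone NOLC1 (-0.14 ± 0.03, adjusted p = 0.00757) and of the assembly helicase RUVBL1, and with more of the cap methyltransferase TGS1. That was 4 of 23, or 17.4%, beside 13.9% of all genes. NOLC1 was also lower with pyridostatin in PARP3-/- alone (-0.18 ± 0.04, adjusted p = 0.0223). No gene of the list changed by a log2 difference over 1.

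All 69 hosts with a row in the table were tested. Between genotypes 2 were called with vehicle, TCP1 and RABGGTB, both lower (2.9%, beside 9.41% of all genes), and 3 with pyridostatin, TCP1, NCL and RABGGTB, all lower (4.35%, beside 10.9%). Pyridostatin went with 2 calls in wild type, SNX5 and EIF5, both lower (2.9%, beside 4.17%), and 4 in PARP3-/-, SNX5, EIF5 and NCL lower and ZBED3 higher (5.8%, beside 5.56%). Over both treatments 10 hosts were lower in PARP3-/- and none was higher (14.5%, beside 19.1% of all genes). Over both genotypes pyridostatin went with 7 calls, TAF1D, MED24 and ZBED3 higher and SNX5, EIF4A2, EIF5 and NCL lower (10.1%, beside 13.9%). None of the hosts called for 1 treatment or genotype alone, TCP1 apart, held a member called in the same contrast.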

How the data were processed

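RNA was measured in 12 libraries of A549 cells. The authors made TruSeq Stranded mRNA libraries, sequenced single 75 base reads on a NextSeq 500, and deposited 1 table of FPKM per gene. The submitters' processing notes name bcl2fastq 2.16, STAR 2.5, Cufflinks and the builds hg19 and mm9. The annotation, the strand setting and the treatment of reads that fit several genes are not given in the sources used here, and no read counts were used, so the counts behind each value were recovered from the steps of the FPKM values as described with the results. The values are as deposited, with no pooling of replicates.

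The 11881 genes averaging 1 FPKM or more were tested with limma 3.58.1 in R 4.3.3 on log2(FPKM + 1), with the 4 groups in 1 model, a mean-variance trend and Benjamini-Hochberg adjustment over all of them. Adjusted p in the text come from this model, except where libraries left out or another setting are named. Those come from a refit under that setting. The added 1 FPKM understates the change of genes whose values lie near 1 FPKM. In most members, however, 1 read was worth several FPKM or more. Where a group of such a member held no read, the size of the fitted log2 difference depended on the added value. It is then not a cautious estimate. A call is an adjusted p under 0.05. Ratios of reads are scaled to relative depth, with 95% exact intervals that cover counting error only. For a ratio without an interval, the group at 0 was set to 3 reads. The reads of the other group were taken as counted, so such a ratio is no lower bound. How well the limma test performs for members with few reads was not tested. Host genes, lengths and sequences came from GENCODE 29 and RefSeq by name. Both are on GRCh38, so no coordinates are given. The sequence of SNORA20 is not reported here.

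Named genes were members called in any contrast, the 10 highest by FPKM, up to 3 rises and 3 falls without overlap per comparison, members above 0 in all of 1 group and 0 in all of the other, the 5 with the smallest within-group SD, PARP3, and hosts. The members and lists were chosen with earlier results of these data known. Other pseudocounts, filters, scalings, fits within the compared libraries, a replicate block and fits without single libraries were tried.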

Additional observations from a re-analysis of the deposited data

How the results depend on the processing

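Depth is a limit here: 59.5% of the values above 0.001 FPKM rest on 1 to 3 reads. Of 15 calls, 8 were lost under at least 1 alternative, and none of the 624 alternative values of the 29 named fold changes changed sign where called. The calls lost under no alternative were those of SNORA20 in both contrasts, of SNORA51 in every contrast but genotype with vehicle, and of SNORA8 for pyridostatin over both genotypes. SNORA20 had 0 reads in wild type, and SNORA51 had 0 in PARP3-/- with pyridostatin, so these groups showed no spread. SNORA20 was also a member only through PARP3-/- libraries. No alternative modelled the counting error of reads, so that these calls remained does not show that they are firm. With 0.1 FPKM added, the interaction had 1 call, SNORA51. With the smallest value above 0.001 FPKM of each gene added, pyridostatin in wild type had 2 calls. With only the libraries of the comparison it had 0. With a mean of at least 5 FPKM, which leaves SNORA16A untested, pyridostatin in PARP3-/- had 1. Without filter, SNORA80B (adjusted p = 0.0554) and SNORA40 (0.0823) were lost, and with quantile normalization SNORA40 (0.0602). Without both libraries with the shifted worth of a read, chosen after seeing the data, genotype with vehicle and pyridostatin in PARP3-/- had 1 call each. Setting values up to 0.001 FPKM to 0, also chosen after seeing the data, changed no count. Where a count changed and no construction is named, the cause was not tested.

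Without single libraries, calls ran from 1 to 3 for genotype with vehicle, 1 to 4 for genotype with pyridostatin, 1 to 2 for pyridostatin in wild type, 1 to 3 for pyridostatin in PARP3-/-, 2 to 4 for genotype and 3 to 7 for pyridostatin over both, and 0 to 1 for the interaction. Rows above 0 numbered 139 in at least 1 library, 82 in at least 6 and 30 in all 12.

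Replicate numbers were not used as pairs in the main model. Deviations from the group means correlated between -0.12 and 0.22 for the 18 pairs of the same number (median 0.06, 3 over 0.1). For the 36 other pairs they correlated between -0.22 and 0.15 (median -0.03, 3 over 0.1). These ranges overlap, and a weak pairing was not tested. With a replicate block the counts were 2, 3, 1 and 2 in the 4 comparisons, 3 for genotype and 3 for pyridostatin over both, and 0 for the interaction. SNORA80B (adjusted p = 0.06) and SNORA40 (0.0566) were not called there.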
